A study of Mus musculus with 22 samples.

Results

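The genes described here are 4 CXC chemokine ligands, Cxcl2, Cxcl9, Cxcl10 and Cxcl16, chosen by name from the 34047 genes of the count table. The choice was made with earlier results of these data known. The 4 genes were followed over all 16 RNA libraries, together with the 8 ATAC-seq windows assigned to them among 177956. Dendritic cells (DCs) were sorted from naive Tbx21RFP-cre mice, male and female, 6 to 10 weeks of age, and each RNA library pooled the cells of a pair of mice (no pool size was found in the sources used here for ATAC-seq). All animals, and so all groups, carried the knock-in allele, in which RFP and Cre are expressed from the locus of Tbx21, the gene of the transcription factor T-bet. All cells were negative for lymphocyte lineage markers, CD64 and Ly6C and positive for CD11c and MHCII. Within this gate, cDC1s were XCR1+ CD11b-, T-bet+ cDC2s were CD11b+ XCR1- RFP+, and T-bet- cDC2s were CD11b+ XCR1- RFP-. RNA-seq covered 9 libraries from spleen, 3 of each subset, and 7 from mesenteric lymph node (MLN), of which 3 were cDC1s, 2 were T-bet+ cDC2s and 2 were T-bet- cDC2s. ATAC-seq, which counts the cuts of a transposase in accessible chromatin, covered 6 spleen libraries, 2 of each subset.

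Chemokines are small secreted proteins that direct the movement of leukocytes through G protein-coupled receptors. CXCL2 acts on CXCR2, the main chemokine receptor of neutrophils, and is induced through NF-kB during inflammation. CXCL9 and CXCL10 act on CXCR3 of activated T cells and NK cells, and both are classical interferon-induced genes, with CXCL9 depending mainly on interferon-γ. CXCL16 differs from the others in being made as a transmembrane protein, which binds CXCR6 on activated T cells and NKT cells and is shed from the surface by the proteases ADAM10 and ADAM17. Dendritic cells are known sources of all 4.

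Cxcl2, Cxcl9 and Cxcl10 lie on chromosome 5 and Cxcl16 on chromosome 11 (mm10, gene models of GENCODE M21). Cxcl2 occupies chr5:90903871-90905938 on the plus strand. Cxcl9 (chr5:92321347-92328079) and Cxcl10 (chr5:92346638-92348889) are neighbours on the minus strand. All of Cxcl10 lies within Art3, a gene of the plus strand, and 133 exonic bases are shared. Art3 had 0 to 2.03 CPM in the 16 libraries, far below Cxcl10. CPM are counts scaled by each library's total of gene reads times its TMM normalization factor. Cxcl16 (chr11:70453983-70459984, minus strand) shares 552 exonic bases with Zmynd15 of the plus strand. The sources used here do not say whether reads were counted by strand, so reads of overlapping genes cannot be told apart. The RefSeq promoter table held entries for 3 of the 4 genes, Cxcl2, Cxcl9 and Cxcl10. The 250 bases before their RefSeq starts are given first, since these stretches hold 9 of the 10 motif matches found in the 3 promoters and the only ATAC-seq window at a start. Each is read along its gene, and capitals mark matches to the motifs spelled out below. They span chr5:90903649-90903898 (plus strand), chr5:92328080-92328329 (minus strand) and chr5:92348890-92349139 (minus strand).
upstream of Cxcl2: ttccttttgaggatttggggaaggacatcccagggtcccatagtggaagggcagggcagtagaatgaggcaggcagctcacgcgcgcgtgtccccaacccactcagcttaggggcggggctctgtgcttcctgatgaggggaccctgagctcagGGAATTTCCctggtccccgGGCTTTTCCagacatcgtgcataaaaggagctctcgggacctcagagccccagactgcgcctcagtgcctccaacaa
upstream of Cxcl9: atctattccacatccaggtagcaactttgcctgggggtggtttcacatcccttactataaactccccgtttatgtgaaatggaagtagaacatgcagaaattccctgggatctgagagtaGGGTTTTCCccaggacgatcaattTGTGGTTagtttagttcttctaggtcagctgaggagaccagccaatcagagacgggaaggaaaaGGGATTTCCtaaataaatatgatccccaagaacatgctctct
upstream of Cxcl10: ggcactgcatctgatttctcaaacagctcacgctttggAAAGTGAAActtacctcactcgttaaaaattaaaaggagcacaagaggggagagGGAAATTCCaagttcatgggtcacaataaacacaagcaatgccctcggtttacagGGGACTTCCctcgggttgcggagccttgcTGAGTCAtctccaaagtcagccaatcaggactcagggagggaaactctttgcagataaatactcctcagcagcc

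The search covered 7 motifs on both strands, from 250 bases before to 50 bases after each start. NF-kB (GGNNNTTCC) matched once or more in all 3 promoters, against 18.5% of 32851 promoters of the table. Its matches began 96 and 77 bases before the start of Cxcl2, 130 and 42 bases before that of Cxcl9, and 158 and 103 bases before that of Cxcl10. ISRE (AAANNGAAA), an element of interferon-induced promoters, matched only in the Cxcl10 promoter of the 3, starting 212 bases before the gene, and 10.6% of all promoters held a match. AP-1 (TGANTCA, 7.81% of promoters) matched 74 bases before the start of Cxcl10 and 31 bases past that of Cxcl9, the latter outside the bases printed. Runx (TGTGGTT, 5.27%) matched 106 bases before Cxcl9. GAS (TTCNNNGAA, 8.30%), C/EBP (TTGCNNAA, 10.8%) and the T-box motif of T-bet (AGGTGTNA, 3.03%) had no match in the 3 promoters. A match describes letters and does not show binding.

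Sorting labels were first set against the genes that define them. Tbx21 had 23.1, 24.9 and 17.2 CPM in spleen T-bet+ cDC2s and no more than 2.38 in the other 6 spleen libraries. In MLN it had 7.19 and 2.93 CPM in T-bet+ cDC2s and at most 0.918 elsewhere. Xcr1, the receptor used to sort cDC1s, had 445 to 1219 CPM in the 6 cDC1 libraries and at most 34.0 in any cDC2 library. That highest value was in MLN T-bet+ cDC2 replicate 2, against 5.19 in replicate 1. Clec9a and Cd8a, also cDC1 markers, had 0.263 to 8.75 and 1.17 to 17.4 CPM in MLN T-bet+ cDC2s. The share of cDC1s in replicate 2 was not tested. One sentence of the study's methods gives the RFP signs of the cDC2 subsets the other way round, and the labels, which Tbx21 bears out, were used. Between 20993220 and 29006549 reads were counted on genes per library, and the members had 89 to 1800 counts (Cxcl2), 107 to 11078 (Cxcl9), 387 to 2738 (Cxcl10) and 4024 to 39385 (Cxcl16). In MLN, cDC1 replicate 1 and T-bet+ cDC2 replicate 1 stood apart: Ccr7, the receptor of DCs that migrate to lymph nodes, had 2556 and 2173 CPM in them and 7714 to 9742 in the other 5. Some results from MLN are therefore also given without this pair, which was decided with their values in view. MLN T-bet+ cDC2s are then 1 library (replicate 2), and so is either MLN cDC2 subset whenever 1 of its libraries is left out. The spread in such fits comes from the other groups, and the lone library is assumed to vary like them.

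Cxcl2 was highest in T-bet- cDC2s of both tissues. Spleen T-bet- cDC2s had 23.9, 26.2 and 9.86 CPM, T-bet+ cDC2s 5.15, 7.65 and 6.06 and cDC1s 3.60, 4.49 and 5.17. The MLN values were 60.5 and 56.9 CPM for T-bet- cDC2s, 9.41 and 32.0 for T-bet+ cDC2s and 6.41, 7.63 and 14.7 for cDC1s. The T-bet- libraries lay above all others of their tissue, although spleen replicate 3 was close to the T-bet+ range and MLN T-bet+ replicate 2 lay between the T-bet- pair and its own partner. Per kb of exon the 6 means ran in the order MLN T-bet- cDC2s (28.4 CPM per kb), MLN T-bet+ cDC2s (10.0), spleen T-bet- cDC2s (9.66), MLN cDC1s (4.64), spleen T-bet+ cDC2s (3.04) and spleen cDC1s (2.14). Of the neighbours in this order only the first pair did not overlap.

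Cxcl9 was a cDC1 transcript that was far lower in T-bet+ cDC2s than in T-bet- cDC2s. Spleen cDC1s had 359.9, 333 and 444 CPM, T-bet- cDC2s 58.3, 48.3 and 52.8, and T-bet+ cDC2s 4.24, 7.35 and 4.53. MLN cDC1s had 449.5, 159 and 240.2 CPM, T-bet- cDC2s of the same organ 71.4 and 45.9, and their T-bet+ counterparts 13.4 and 14.0. No library of one subset reached the range of another subset of its tissue, so Cxcl9 kept the same order of subsets in both organs. The order of the 6 means was spleen cDC1s (126 CPM per kb), MLN cDC1s (93.8), MLN T-bet- cDC2s (19.5), spleen T-bet- cDC2s (17.6), MLN T-bet+ cDC2s (4.54) and spleen T-bet+ cDC2s (1.78). Libraries overlapped between tissues for cDC1s and for T-bet- cDC2s and not for T-bet+ cDC2s.

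Cxcl10 differed less between subsets than Cxcl9, its neighbour on the chromosome. In spleen cDC1s had 59.0, 59.1 and 47.3 CPM, the T-bet- subset 63.7, 78.9 and 40.5 and the T-bet+ subset 21.9, 23.0 and 27.2. Both other subsets lay above the T-bet+ libraries and overlapped each other. MLN cDC1s spread widely, with 81.7, 16.8 and 31.7 CPM, and the highest of them was replicate 1 of the low-Ccr7 pair. MLN T-bet- cDC2s had 92.1 and 69.2 CPM and T-bet+ cDC2s 30.0 and 18.9. Group means ran from 35.8 CPM per kb in MLN T-bet- cDC2s through 27.1 in spleen T-bet- cDC2s, 24.5 in spleen cDC1s, 19.3 in MLN cDC1s and 10.8 in MLN T-bet+ cDC2s to 10.7 in spleen T-bet+ cDC2s, and every pair of neighbours in this order overlapped.

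Cxcl16 was the most abundant of the 4 per kb of exon in every group. Spleen cDC1s had 596, 404 and 342 CPM, T-bet- cDC2s 297, 356 and 507, and T-bet+ cDC2s 172, 151 and 179. The T-bet+ libraries lay below all others of the spleen, while cDC1s and T-bet- cDC2s overlapped. MLN cDC1s had 527, 1359 and 1434 CPM, T-bet+ cDC2s 230.1 and 1145, and T-bet- cDC2s 788 and 1340.5. The lowest MLN values, 527 and 230.1, were those of the low-Ccr7 pair. Means were 366 CPM per kb in MLN cDC1s, 352 in MLN T-bet- cDC2s, 228 in MLN T-bet+ cDC2s, 148 in spleen cDC1s, 128 in spleen T-bet- cDC2s and 55.4 in spleen T-bet+ cDC2s. Only the last pair of neighbours did not overlap.

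**Figure D1:**
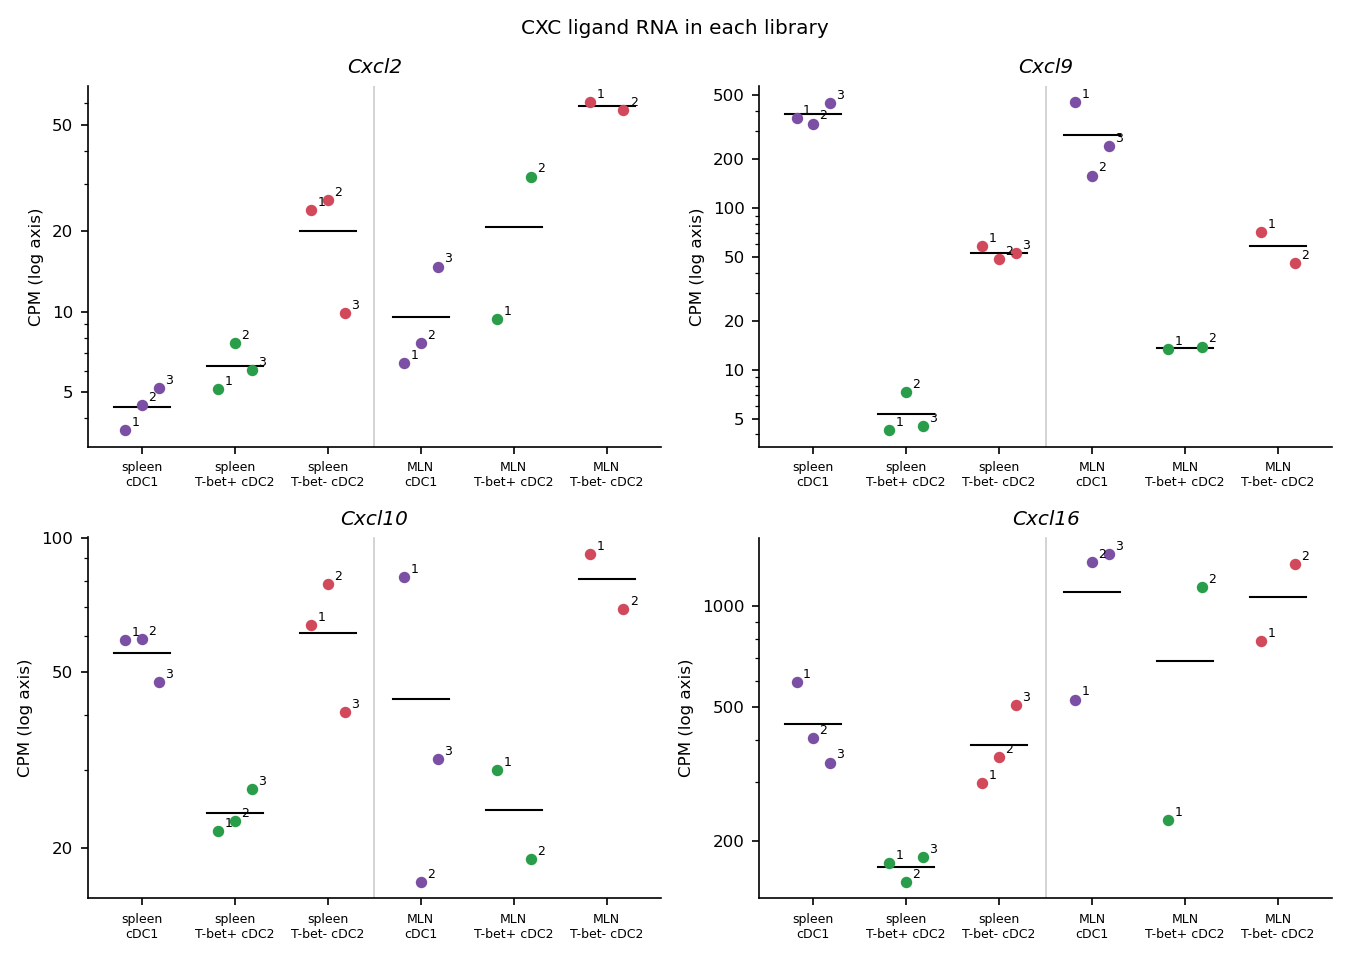
CPM of Cxcl2, Cxcl9, Cxcl10 and Cxcl16 (log axes, 1 panel per gene) in each RNA library, by tissue and subset. Points are libraries, numbers beside them are replicate numbers and black bars are group means. The 3 spleen T-bet+ libraries lie below the 3 spleen T-bet- libraries in all panels, and Cxcl9 falls from cDC1s (333 to 444 CPM in spleen) to T-bet+ cDC2s (4.24 to 7.35).

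The first comparison asks how the cDC2 subsets differ. In spleen all 4 ligands fell in T-bet+ relative to T-bet- cDC2s (4 of 4, against 5.38% of 14377 genes called in either direction and 3.44% called lower in T-bet+ cDC2s). Cxcl9 showed the largest difference of the 4, which was -3.30 on the log2 scale (9.86-fold, SE 0.268, adjusted p = 0.00024, edgeR's quasi-likelihood test). Cxcl2 fell by 1.67 on the log2 scale (SE 0.389, adjusted p = 0.0388, edgeR), a 3.17-fold difference. Cxcl10 fell by 1.34 (SE 0.273, 2.54-fold, adjusted p = 0.0219, edgeR) and Cxcl16 by 1.21 (SE 0.265, 2.31-fold, adjusted p = 0.03, edgeR). The median log2 fold change of the 4 was -1.50, while that of all genes was -0.01. Cxcl9 is on a list of T-bet- cDC2 genes that the study drew from these same libraries. The study also names Cxcl2 for T-bet- cDC2s from them, so these directions are not independent of that choice. All 4 members were in turn chosen with earlier results of these data known. The 4 of 4 called and their median are therefore not independent of these data either. Since these are bulk libraries, fewer cells that express a gene and less RNA per cell cannot be told apart.

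These calls were not equally firm. Cxcl9 passed the threshold in all 17 alternative fits, Cxcl16 in 12, Cxcl10 in 10 and Cxcl2 in 6, and the direction held in all 17 for each. With the replicate number as a block, Cxcl2, Cxcl10 and Cxcl16 lost their calls and Cxcl9 kept its own. Cxcl2 lost its call without cDC1 replicate 1 (adjusted p = 0.0556) or 2 (0.056), without T-bet+ replicate 1 (0.156), 2 (0.103) or 3 (0.136), and without T-bet- replicate 1 (0.121) or 2 (0.125), all by edgeR. Cxcl10 lost its call without T-bet+ replicate 1 (adjusted p = 0.106), 2 (0.105) or 3 (0.0677) or T-bet- replicate 1 (0.0656) or 2 (0.0725), and Cxcl16 without T-bet+ replicate 1 (0.109), 2 (0.133) or 3 (0.0946) or T-bet- replicate 2 (0.0639), again by edgeR. The spleen libraries also split by how their levels followed the GC content of the richest 100 bases of a transcript: T-bet- replicates 1 and 2 and cDC1 replicate 3 (correlations of -0.46 to -0.30) stood apart from the other 6 (0.19 to 0.32), and no T-bet+ library was in the smaller class. With this class as a term, added once the split was known, Cxcl9 (log2 fold change -3.17, adjusted p = 0.000169) and Cxcl16 (-1.57, 0.00342) passed and Cxcl10 (-1.15, 0.0768) and Cxcl2 (-0.98, 0.213) did not, by edgeR. With a class set by the GC content of the whole transcript, Cxcl2 alone was lost (-1.66, adjusted p = 0.065, edgeR).

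Several marker genes of macrophages and monocytes moved in the same direction. The summed level of 10 macrophage markers was 1086 to 1525 CPM in spleen T-bet- cDC2s and 462 to 545 in T-bet+ cDC2s, and none of the 10 was at 0 in a group. Of these 10, 7 were called lower in T-bet+ cDC2s by edgeR, against 3.44% of all genes. Among them were the complement genes C1qa (log2 fold change -3.49), C1qb (-3.25) and C1qc (-3.08). Fcgr1 (-3.46), which encodes the CD64 used to gate macrophages out, was another. The rest were not called, with Adgre1 at -0.18, Marco at -0.75 and Timd4 higher in T-bet+ cDC2s (1.12). For the 6 monocyte markers the sums were 7058 to 11017 CPM and 181 to 256, and Ccr2 and Lyz2 were among those lower in T-bet+ cDC2s. Nearly all of the sum in T-bet- cDC2s was Lyz2 (6776 to 10616 CPM), which the study describes, with Ccr2, in T-bet- cDC2s themselves. Ly6c2, which encodes a form of the Ly6C gated against, had 1.95 to 4.05 CPM in T-bet- and 1.45 to 2.02 in T-bet+ cDC2s and was not called. Neutrophil markers (8 genes) summed to 70.3 to 118 CPM and 74.4 to 84.8, overlapping between the cDC2 subsets. Sums of B cell markers were at most 117 CPM, of T and NK cell markers at most 18.6 and of plasmacytoid DC markers 98.6 to 248 over all libraries. The part of these cells in the ligand differences was not tested.

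In MLN, no ligand passed the threshold between the cDC2 subsets, and neither did any other of the 15298 genes (0% called by edgeR, with 1444 genes at an unadjusted p under 0.05). DESeq2 called 328 genes there. Cxcl9 was lower in both T-bet+ libraries than in both T-bet- libraries (-2.14 on the log2 scale, SE 0.526) at an unadjusted p of 0.00359 and an adjusted p of 0.272 by edgeR, and DESeq2 called it (adjusted p = 0.00606). Cxcl2 (-1.54, SE 0.589, adjusted p = 0.48 by edgeR) and Cxcl10 (-1.77, SE 0.69, adjusted p = 0.485 by edgeR) also did not overlap between the cDC2 subsets. For Cxcl16 the log2 fold change was -0.65 (SE 0.734, adjusted p = 0.854 by edgeR) and only 0.02 without the low-Ccr7 pair, with 1 T-bet+ library left. Cxcl2 (-0.95), Cxcl9 (-2.15) and Cxcl10 (-2.17) kept their direction in that fit and did not pass (adjusted p of 0.472, 0.164 and 0.189, edgeR). The MLN macrophage marker sums were 1414 to 2454 CPM in T-bet- and 398 to 412 in T-bet+ cDC2s. Adgre1 (log2 fold change 1.60) and Timd4 (0.74) of that list were higher in T-bet+ cDC2s, and the others were lower. A test of whether the subset difference differed between tissues called 1 of 16795 genes (0.00595%) and no ligand. For Cxcl9 this difference of differences was -1.20 on the log2 scale (SE 0.528, adjusted p = 0.949, edgeR), so a larger gap in spleen was not established.

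The second comparison set T-bet+ cDC2s against cDC1s, in which 18.2% of genes passed in spleen. Cxcl9 was 70.3-fold lower in T-bet+ cDC2s (log2 fold change -6.13, SE 0.305, adjusted p = 2.64e-06, edgeR). Cxcl16 was 2.67-fold lower (-1.42, SE 0.266, adjusted p = 0.00506, edgeR) and Cxcl10 2.29-fold lower (-1.20, SE 0.272, adjusted p = 0.0135, edgeR). The Cxcl10 call was lost without T-bet+ replicate 1 (adjusted p = 0.0643) or 2 (0.058), by edgeR. Cxcl2 did not pass (0.51, SE 0.385, adjusted p = 0.428, edgeR). In MLN, where 6.22% of genes passed, Cxcl9 alone of the 4 was called, at 20.5-fold lower in T-bet+ cDC2s (-4.36, SE 0.562, adjusted p = 0.00548, edgeR), and it passed in all 15 alternative fits. Log2 fold changes of the other 3 were 1.15 (Cxcl2), -0.83 (Cxcl10) and -0.63 (Cxcl16), with edgeR adjusted p of 0.245, 0.48 and 0.632. Without the low-Ccr7 pair, and so with 1 T-bet+ library, Cxcl9 passed at -3.83 (adjusted p = 0.00799, edgeR) and the other 3 did not.

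Between tissues this Cxcl9 difference was -1.77 on the log2 scale (SE 0.497, adjusted p = 0.239, edgeR), not past the threshold that 0.0893% of genes passed. It passed without MLN cDC1 replicate 1 alone (-2.30, adjusted p = 0.0286, edgeR). Without the low-Ccr7 pair, where 1 library stood for MLN T-bet+ cDC2s, it was -2.42. Replicate 1 had the highest Cxcl9 of the MLN cDC1s, so both values grew by its removal. The other ligands also did not pass this test, at -0.60 (Cxcl2, SE 0.683), -0.37 (Cxcl10, SE 0.653) and -0.73 (Cxcl16, SE 0.723).

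T-bet- cDC2s were compared with cDC1s as the third contrast, which shares its libraries with the first pair of contrasts. In spleen (15.9% of genes called) Cxcl2 rose and Cxcl9 fell in T-bet- cDC2s. Cxcl2 was 4.52-fold higher (log2 fold change 2.18, SE 0.397, adjusted p = 0.00498, edgeR) and Cxcl9 was 7.12-fold lower (-2.83, SE 0.26, adjusted p = 7.89e-05, edgeR). Cxcl10 (0.15, SE 0.268, adjusted p = 0.76) and Cxcl16 (-0.21, SE 0.261, adjusted p = 0.647) did not pass by edgeR. MLN gave the same pair of calls (5.79% of genes called), with Cxcl2 6.45-fold higher (2.69, SE 0.531, adjusted p = 0.0262, edgeR) and Cxcl9 4.65-fold lower (-2.22, SE 0.5, adjusted p = 0.0424, edgeR).

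Both MLN calls depended on single libraries. Cxcl2 lost its call without cDC1 replicate 1 (adjusted p = 0.0662) or 2 (0.0842) or T-bet- replicate 1 (0.167) or 2 (0.121), and Cxcl9 without cDC1 replicate 3 (0.0831) or T-bet- replicate 1 (0.18) or 2 (0.232), by edgeR. Cxcl10, at 0.94 (SE 0.603, adjusted p = 0.458, edgeR), passed without cDC1 replicate 1 alone (1.84, adjusted p = 0.0487, edgeR). Without the low-Ccr7 pair its log2 fold change was 1.82. Replicate 1 had the highest Cxcl10 of the MLN cDC1s, so both gaps widened by its removal. Cxcl16 was level (0.01, SE 0.667, adjusted p = 0.995, edgeR). No ligand passed the test of a difference between tissues in this contrast, which 0.0357% of genes passed.

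**Figure D2:**
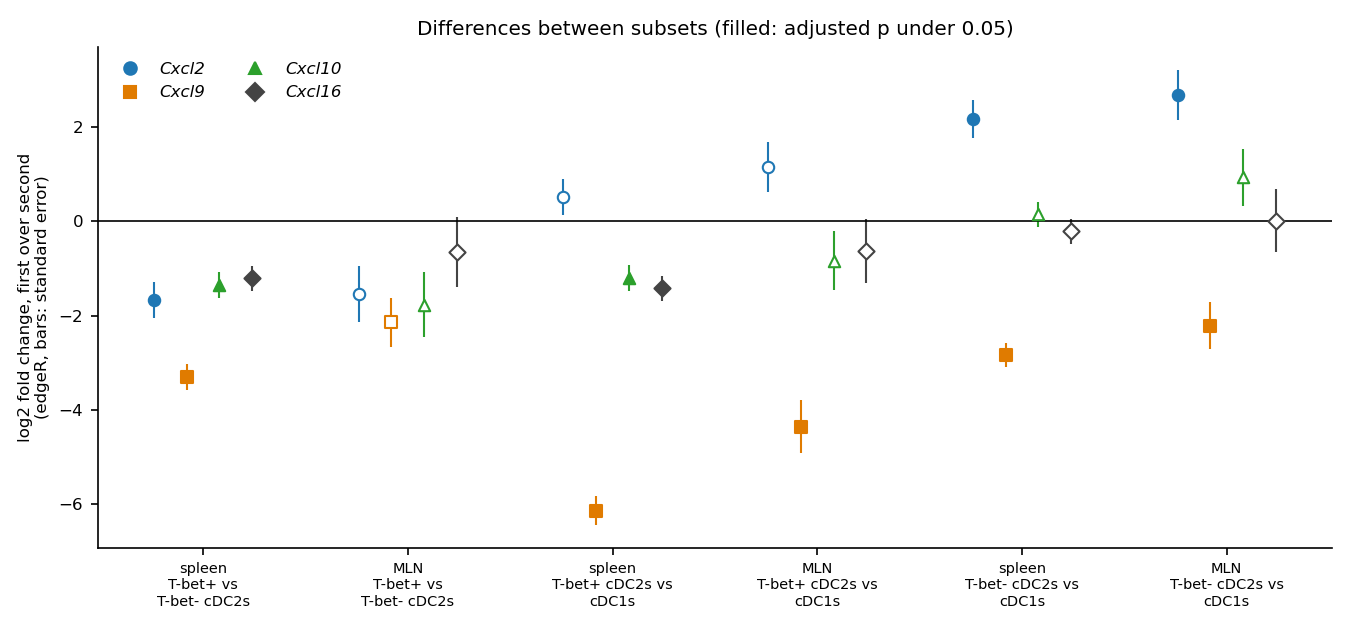
Log2 fold change (y axis, edgeR, bars are standard errors) of each ligand in the 3 contrasts between subsets, in spleen and MLN. Filled points have an adjusted p under 0.05. Cxcl9 lies below 0 throughout, from -6.13 to -2.14, and Cxcl2 lies above 0 wherever a cDC2 subset is set against cDC1s.

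Levels in spleen and MLN were set against each other within each subset, where tissue and preparation cannot be told apart. Of the 4 ligands, Cxcl16 was called in T-bet+ cDC2s (5.09% of 16795 genes called), and no ligand was called in cDC1s (11.7%) or in T-bet- cDC2s (5.95%). At the unadjusted p, edgeR put Cxcl2 (0.0301) and Cxcl16 (0.0186) under 0.05 in cDC1s and Cxcl2 (0.00735) and Cxcl16 (0.016) in T-bet- cDC2s. DESeq2 called 1 ligand in each of these subsets and 3 in T-bet+ cDC2s. It also called more genes than edgeR, with 3513 (cDC1s), 2243 (T-bet-) and 2704 (T-bet+) in total. Cxcl16 was 4.11-fold lower in spleen than in MLN T-bet+ cDC2s (log2 fold change -2.04, SE 0.538, adjusted p = 0.0445, edgeR).

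That call rested on few libraries and passed in 11 of 21 alternative fits. Without MLN T-bet+ replicate 2 the log2 fold change was -0.45 (adjusted p = 0.708, edgeR), with only replicate 1 left. It was also lost without spleen T-bet+ replicate 1 (0.13), 2 (0.115) or 3 (0.103), spleen cDC1 replicate 2 (0.0653), MLN cDC1 replicate 2 (0.0559) or 3 (0.0565), or MLN T-bet- replicate 1 (0.0522) or 2 (0.0523), the values being edgeR adjusted p. Without the low-Ccr7 pair, Cxcl16 was lower in spleen in all 3 subsets, with edgeR log2 fold changes of -1.61 (cDC1s), -1.45 (T-bet- subset) and -2.85 (T-bet+ cDC2s). No T-bet- library was left out, and with all libraries the T-bet- value was -1.46 (adjusted p = 0.117, edgeR). The libraries left out had the lowest Cxcl16 of the MLN, so the gap widened by that choice for cDC1s and T-bet+ cDC2s, and the T-bet+ value compares the spleen with 1 MLN library. For Cxcl2 in T-bet- cDC2s the log2 fold change was then -1.53, against -1.56 with all libraries (adjusted p = 0.0794, edgeR). In T-bet+ cDC2s the log2 fold changes were -2.42 for Cxcl2 and -1.45 for Cxcl9, again resting on that 1 library. It was the cDC2 library with the most Xcr1 (34.0 CPM). Cxcl10 in cDC1s was instead higher in spleen, at 1.22, against 0.35 with all libraries (adjusted p = 0.621, edgeR). Without MLN cDC1 replicate 1 alone, cDC1s passed for Cxcl9 (0.99, adjusted p = 0.0338), Cxcl10 (1.25, 0.0266) and Cxcl16 (-1.57, 0.0413), by edgeR. That library had the highest Cxcl9 and Cxcl10 and the lowest Cxcl16 of the MLN cDC1s, so these gaps widened by its removal. With all libraries Cxcl9 stood at 0.42 (adjusted p = 0.403, edgeR).

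A list of 7 markers of mature migratory DCs, Ccr7 among them, was mostly lower in spleen. Its summed level was 1790 to 5906 CPM over the spleen libraries and 3372 to 16239 over those of MLN, where the low-Ccr7 pair gave the lowest sums, 4590 in cDC1s and 3372 in T-bet+ cDC2s. Ccr7, by which the pair was chosen, made up most of both sums, so they largely restate that choice. Of the 7 genes, 6 were called lower in spleen for cDC1s, 5 for the T-bet- and 4 for the T-bet+ subset. Of all genes, 11.7%, 5.95% and 5.09% were called there in either direction. Ccr7 itself passed only in cDC1s, with log2 fold changes of -1.95, -1.12 and -0.22 in the same order. Relb passed in no subset, at -1.21, 0.02 and 1.67. Whether the share of such cells sets the level of Cxcl16 was not tested.

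Zmynd15, which overlaps Cxcl16 on the other strand, followed it between groups but not within all of them. Its spleen values were 7.37, 7.69 and 13.7 CPM (T-bet+ cDC2s), 41.1, 48.4 and 42.3 (T-bet- cDC2s) and 41.4, 28.6 and 50.8 (cDC1s). It fell in T-bet+ relative to T-bet- cDC2s by 2.20 log2 units (SE 0.326, adjusted p = 0.0051, edgeR). In MLN it had 229 and 43.2 CPM in the low-Ccr7 pair and 374 to 1124 in the other libraries. Spleen over MLN, its log2 fold change was -4.30 (cDC1s), -3.27 (T-bet- subset) and -4.45 (T-bet+ cDC2s), a wider gap than for Cxcl16 in each. Over the 16 libraries log2 CPM of both genes correlated with r = 0.93, which describes libraries that share tissue and subset. How many reads fell on the 552 exonic bases common to both genes was not tested.

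**Figure D3:**
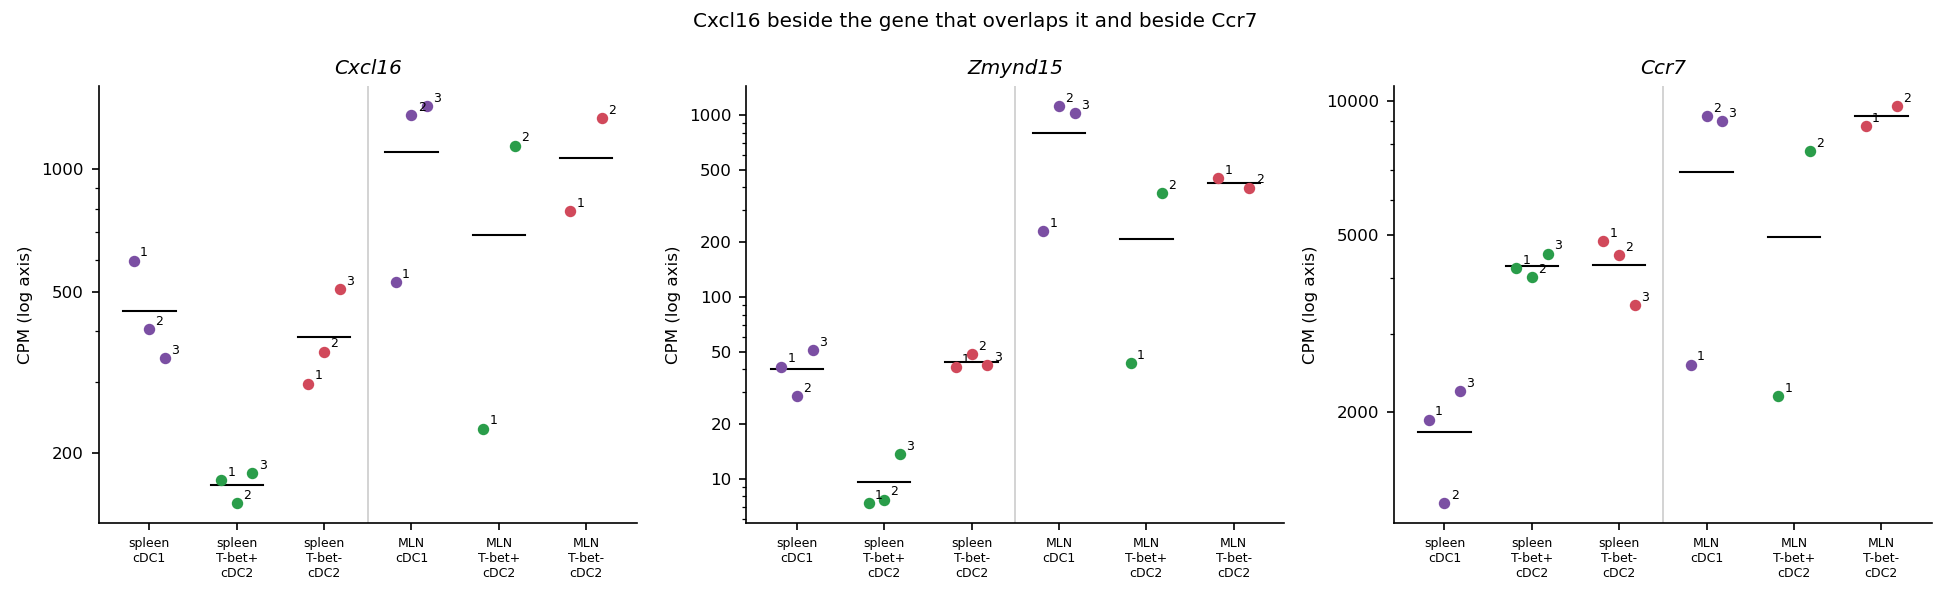
CPM (log axes) of Cxcl16, of the overlapping gene Zmynd15 and of Ccr7 in each RNA library. Points are libraries with their replicate numbers and black bars are group means. Replicate 1 of MLN cDC1s and of MLN T-bet+ cDC2s is the lowest of the MLN in all 3 panels, with 2556 and 2173 CPM of Ccr7.

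Among 8098 expressed genes, those most like each ligand over the 16 libraries were found by Pearson's r of log2 CPM, as a description of libraries that share subset and tissue. For Cxcl9 they were Rab32 (r = 0.99), Galc (0.98) and Rab7b (0.98). Cxcl16 was most like Gphn (0.95), Pdlim4 (0.94) and Fdps (0.94), and for Cxcl2 they included Gbp3 (0.93) and Lxn (0.91). Cxcl10 had the weakest partners, Mknk1 (0.88), Dpysl2 (0.84) and Rabggta (0.81). Among the ligands themselves r was 0.52 between Cxcl9 and Cxcl10, 0.51 between Cxcl9 and Cxcl16, 0.46 between Cxcl2 and Cxcl16, 0.31 between Cxcl2 and Cxcl10, 0.10 between Cxcl10 and Cxcl16 and -0.15 between Cxcl2 and Cxcl9. No ligand was among the 3 genes most like another.

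The other CXC ligands were mostly at low levels, Cxcl1 in MLN excepted. Of 11 listed, 9 were in the table and 5 were tested in spleen, where none passed between the cDC2 subsets and their median log2 fold change was -1.39. Cxcl1, a neutrophil attractant like Cxcl2, had 0.532 to 3.47 CPM in spleen and 5.11 to 32.6 in MLN, and it was lower in spleen in all 3 subsets (log2 fold changes of -4.35 for cDC1s, -3.89 for the T-bet- and -3.81 for the T-bet+ subset). Cxcl11, the third CXCR3 ligand, is annotated as a polymorphic pseudogene and had 0 to 6.41 CPM. Cxcl12, the ligand of CXCR4, had 0.563 to 4.09 CPM. Pf4 passed once, at a log2 fold change of 5.59 between MLN T-bet- cDC2s and cDC1s (adjusted p = 0.0414, edgeR), at levels of at most 2.52 CPM.

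Of 8 receptors of CXC ligands, 7 were tested. Cxcr3, the receptor of CXCL9 and CXCL10, was itself a cDC1 transcript, with 69.6 to 90.8 CPM in spleen cDC1s against 1.41 to 3.05 in spleen cDC2s and 36.8 to 133 against 1.72 to 8.05 in MLN. It fell in spleen T-bet+ (log2 fold change -5.19) and T-bet- cDC2s (-5.06) relative to cDC1s, and likewise in MLN (-3.55 and -4.84). Cxcr4, which retains cells through CXCL12, was the only receptor called between the spleen cDC2 subsets (-1.01, SE 0.236, adjusted p = 0.0385, edgeR), with 78.8 to 100.04 CPM in T-bet+ libraries and 137 to 216 in T-bet- libraries. Relative to cDC1s it was higher in T-bet- cDC2s of the spleen (1.26) and in both MLN subsets (1.34 for T-bet+ and 2.37 for T-bet-). It was also higher in spleen than in MLN in all 3 subsets (2.29 for cDC1s, 1.24 for T-bet- and 1.23 for T-bet+ cDC2s). Cxcr5, the receptor of CXCL13, was higher in both spleen cDC2 subsets than in cDC1s (3.25 and 2.48 for T-bet+ and T-bet-) at no more than 15.3 CPM in any library. Cxcr2 and Cxcr6, the receptors of CXCL2 and CXCL16, were low, at no more than 2.76 and 4.24 CPM, and Cxcr2 was higher in T-bet- cDC2s than in cDC1s of the spleen (3.89). Ackr1, an atypical receptor that binds chemokines without signalling, had 0 counts in every cDC1 library and up to 6.85 CPM in cDC2s, and was called higher in both cDC2 subsets of the spleen.

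Interferon signalling genes upstream of Cxcl9 and Cxcl10 gave 2 calls among 12 between the spleen cDC2 subsets, where 5.38% of all genes were called. Of the 12, only Jak2 (0.87, adjusted p = 0.049) rose and only Ifnar1, a chain of the type I interferon receptor, fell (-1.17, adjusted p = 0.0121) in T-bet+ cDC2s, by edgeR, and the median was 0.07. Ifngr1, the ligand-binding chain of the interferon-γ receptor, was lower in spleen T-bet+ cDC2s than in cDC1s (-0.70, adjusted p = 0.0123, edgeR), as were Ifnar1 (-0.80) and the kinase Tyk2 (-1.32), and Jak2 was higher (0.89). Between T-bet- cDC2s and cDC1s of the spleen only Tyk2 passed (-1.29). No gene of this list passed between subsets in MLN. Genes of this list were also called between tissues, where 11.7% (cDC1s), 5.95% (T-bet-) and 5.09% (T-bet+) of all genes passed. For cDC1s, Irf1 (-2.05), Stat2 (-1.42) and Jak2 (-1.45) were among those lower in spleen and Ifngr1 (1.31) was higher. For T-bet- cDC2s, Irf1 (-1.63), Jak2 (-1.86) and Tyk2 (-2.02) were lower and Ifngr1 (1.45) higher, and for T-bet+ cDC2s, Jak2 (-1.36) was among those lower.

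The 10 genes of the NF-kB pathway gave no call between the cDC2 subsets (median log2 fold change 0.09 in spleen). Of all genes, 18.2% passed between spleen T-bet+ cDC2s and cDC1s and 15.9% between spleen T-bet- cDC2s and cDC1s. Against spleen cDC1s, Nfkb1, which encodes the p50 subunit, rose in both T-bet+ (2.52) and T-bet- cDC2s (2.16). Tnfaip3, a feedback inhibitor, passed in T-bet+ cDC2s (1.28) and narrowly missed in T-bet- cDC2s (1.19, adjusted p = 0.0519, edgeR). Nfkbiz, a nuclear IkB protein, passed in T-bet- cDC2s (2.35) and narrowly missed in T-bet+ cDC2s (1.79, adjusted p = 0.0551, edgeR). In MLN only Nfkb1 in T-bet+ cDC2s passed (2.05), where 6.22% of all genes passed. Spleen over MLN, Ikbkb (-1.45) and Nfkbib (-1.14) were lower for cDC1s and Nfkb1 (1.43) was higher for T-bet- cDC2s. Of the proteases, neither Adam10, Adam17 nor Dpp4 passed between subsets. Adam17, a sheddase of CXCL16, stood at -1.19 (log2) between the spleen cDC2 subsets (SE 0.319, adjusted p = 0.0641, edgeR). Dpp4, which trims CXCL9 and CXCL10, was lower in spleen than in MLN T-bet+ cDC2s (-1.39, adjusted p = 0.0351, edgeR). Of 12 immediate early genes, which are induced rapidly by many stimuli, none passed between the spleen cDC2 subsets (median 0.86), while Atf3 (1.39), Fos (0.94), Nr4a1 (1.11) and Zfp36 (1.31) rose in T-bet+ cDC2s and Atf3 (1.01), Fos (0.74) and Zfp36 (1.13) in T-bet- cDC2s relative to cDC1s of the spleen. Jund (4.09) was higher and Zfp36 (-0.84) lower in spleen than in MLN cDC1s.

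**Figure D4:**
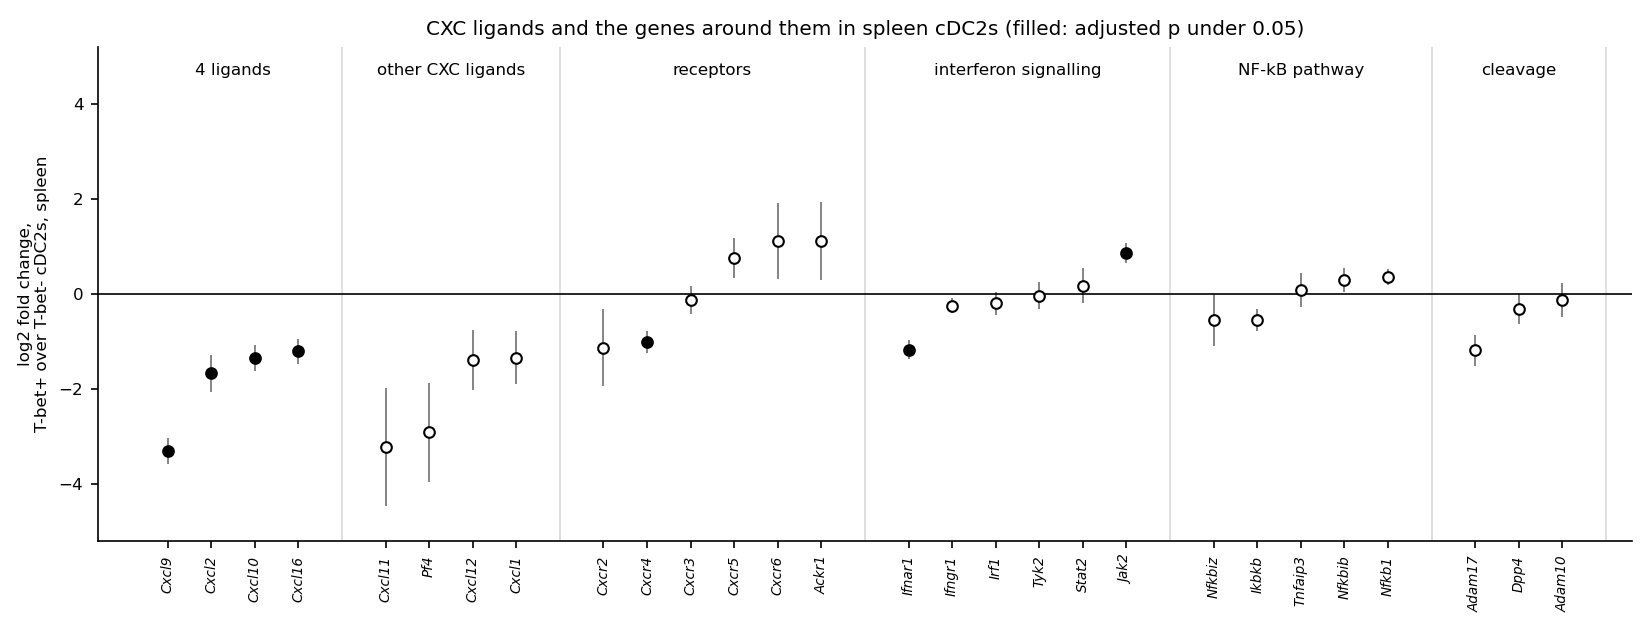
Differences between the spleen cDC2 subsets (y axis, log2 of T-bet+ over T-bet-, edgeR, bars are standard errors) for the 4 ligands and those other CXC ligands, receptors, interferon signalling genes, NF-kB pathway genes and proteases that are named in the text. Filled points have an adjusted p under 0.05, and they are the 4 ligands, Cxcr4, Ifnar1 and Jak2.

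ATAC-seq windows of 150 bases, 1 for each peak summit, were then examined at the 4 loci. A window was assigned to the closest gene within 50000 bases of its peak, which gave 5 windows to Cxcl9, 2 to Cxcl2, 1 to Cxcl10 (at equal distance from Art3, whose intron holds it) and 0 to Cxcl16. Of the 8, 7 passed the filter on low counts, and the other, at Cxcl2, had 1 to 17 reads. Within 10000 bases of the 4 genes lay 26 windows, of which 25 were tested. None of the windows used here lay at the starts of Cxcl2, Cxcl9 or Cxcl16. The nearest to Cxcl16 were 57 bases past the end of the gene and 6908 bases before its start. The 3 windows printed next lie outside promoters and were called against cDC1s in both cDC2 subsets, 2 of them lower and 1 higher, and a further window that overlaps the first of them is left out. They are given along the strand of the ligand (minus) at chr5:92339307-92339456, chr5:92353710-92353859 and chr11:70466818-70466967 of mm10, with a GAS match in capitals.
9508 bases past the start of Cxcl10, in an intron of Art3: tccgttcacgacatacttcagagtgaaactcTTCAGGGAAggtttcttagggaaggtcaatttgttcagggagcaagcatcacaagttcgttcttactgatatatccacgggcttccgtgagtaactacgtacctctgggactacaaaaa
4895 bases before the start of Cxcl10, in an intron of Art3: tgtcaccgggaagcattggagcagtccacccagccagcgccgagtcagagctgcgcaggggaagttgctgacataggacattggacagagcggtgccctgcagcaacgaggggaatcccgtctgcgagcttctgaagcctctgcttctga
6908 bases before the start of Cxcl16, intergenic: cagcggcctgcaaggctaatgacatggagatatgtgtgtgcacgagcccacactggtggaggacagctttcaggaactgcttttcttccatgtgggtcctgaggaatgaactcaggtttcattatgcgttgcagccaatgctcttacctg

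Among windows as among promoters a match is common: 4.29% of 177956 windows held GAS, 10.2% NF-kB, 6.62% ISRE, 7.90% AP-1, 5.89% C/EBP, 5.23% Runx and 1.92% the T-box motif.

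A window counted as called when its adjusted p was under 0.01 and its log2 fold change beyond 0.5 in either direction. Of the 7 assigned windows tested, none was called between T-bet+ and T-bet- cDC2s (6.28% of 166547 windows called), 1 between T-bet+ cDC2s and cDC1s (23.0%) and 1 between T-bet- cDC2s and cDC1s (17.9%). Their median log2 fold changes were -0.78, -0.91 and 0.39, against -0.01, -0.00 and 0.01 for all windows. Of these windows 5 lie in 1 peak at Cxcl9, so the medians mostly describe that peak. In the same order the Cxcl2 window stood at -0.51, -0.28 and 0.22 and the Cxcl10 window at 0.32, 0.93 and 0.61. The called window was in both cases the one at the Cxcl10 promoter (chr5:92348888-92349037), whose centre is 73 bases before the start and which covers the proximal NF-kB and the AP-1 match printed above.

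The Cxcl10 promoter was open in all 3 subsets, least so in cDC1s. Its window had 37.5 and 36.8 CPM for T-bet+ cDC2s, 29.6 and 30.0 for T-bet- cDC2s and 22.0 and 17.0 for cDC1s, and its mean was at the 96.8 percentile of all windows. The subsets did not overlap. The window was 1.90-fold higher in T-bet+ cDC2s than in cDC1s (0.93 on the log2 scale, SE 0.182, adjusted p = 2.67e-05, edgeR) and kept its call in 9 of 10 alternatives, the exception being the fit without cDC1 replicate 2 (log2 fold change 0.76). In T-bet- cDC2s it was 1.53-fold higher than in cDC1s (0.61, SE 0.184, adjusted p = 0.00824, edgeR), a call that held in 4 of 10 alternatives and was lost with DESeq2, with library size only and without any 1 library of either subset. Between the cDC2 subsets it did not pass (0.32, SE 0.175, adjusted p = 0.265, edgeR). Cxcl10 RNA, in contrast, was lowest in T-bet+ cDC2s of the spleen, the subset with the highest values of this window.

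Elsewhere around Cxcl10, 2 overlapping windows about 9.5 kb past its start, 1 of them printed above, were higher in cDC1s. The printed one had 3.80 and 6.66 CPM in cDC1s and its neighbour (chr5:92339213-92339362) 3.68 and 4.57, against 0.10 to 0.65 in all cDC2 libraries. Against cDC1s, T-bet+ cDC2s gave log2 fold changes of -3.25 (SE 0.503, edgeR adjusted p = 2.03e-07) and -4.18 (SE 0.625, 8.88e-08), and T-bet- cDC2s -3.68 (7.54e-08) and -3.81 (5.44e-07). All 4 calls held in every one of 10 alternatives. These windows lie between Cxcl10 and Cxcl9, but their closest gene by annotation is Art3, so they were not assigned to either ligand. The window 4895 bases before Cxcl10 had the opposite pattern, with 12.8 and 13.8 CPM for cDC1s, 22.8 and 24.5 for T-bet- and 21.3 and 26.4 for T-bet+ cDC2s. It rose in both cDC2 subsets relative to cDC1s (0.84, adjusted p = 0.000624 in T-bet+, and 0.83, adjusted p = 0.000997 in T-bet- cDC2s, edgeR), in 8 and 7 of 10 alternatives. The former call was lost without cDC1 replicate 1 (log2 fold change 0.79) or T-bet+ replicate 2 (0.69), and the latter without cDC1 replicate 1 (0.78) or 2 (0.88) or T-bet- replicate 2 (0.79).

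At Cxcl16 the window 6908 bases before the start was a cDC1 window too. Its libraries had 6.53 and 7.84 CPM (cDC1s), 0.74 and 2.13 (T-bet- subset) and 0.44 and 1.25 (T-bet+ cDC2s). Its log2 fold change against cDC1s was -3.05 in T-bet+ (SE 0.441, adjusted p = 3.63e-08, edgeR) and -2.27 in T-bet- cDC2s (SE 0.405, adjusted p = 7.32e-06, edgeR), and both calls held in all 10 alternatives. It is closer to Zmynd15, whose end lies 533 bases from the peak, than to Cxcl16. Cxcl16 RNA was lower in T-bet+ cDC2s than in cDC1s of the spleen but did not pass between T-bet- cDC2s and cDC1s. Another window, 6383 bases past the start of Cxcl16 and within an exon of Med11, held the only T-box match among the 26.

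The 5 windows of Cxcl9 lay 9312 to 9887 bases past its start, beyond the end of the gene, and were of low to moderate count (0.11 to 8.63 CPM). None was called. Together they fall in 1 peak (chr5:92318152-92318909), and when whole peaks were counted this peak was lower in the T-bet+ subset than in the T-bet- subset (log2 fold change -1.05, SE 0.278, adjusted p = 0.00325, edgeR), with 4.48 and 4.61 against 12.1 and 7.24 CPM. In cDC1s the same peak had 7.12 and 8.03 CPM and was not called against T-bet+ (adjusted p = 0.101) or T-bet- cDC2s (adjusted p = 0.148, edgeR), although Cxcl9 RNA was highest in cDC1s. Cxcl2 had 1 tested window, 5310 bases past its start and beyond its end, with 9.15 and 6.53 CPM for cDC1s, 11.1 and 7.39 for T-bet- and 6.96 and 5.96 for T-bet+ cDC2s. The cDC1 values overlapped those of both cDC2 subsets, which did not overlap each other, and it was not called in any contrast (log2 fold change -0.51 between the cDC2 subsets, SE 0.275, adjusted p = 0.26, edgeR).

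**Figure D5:**
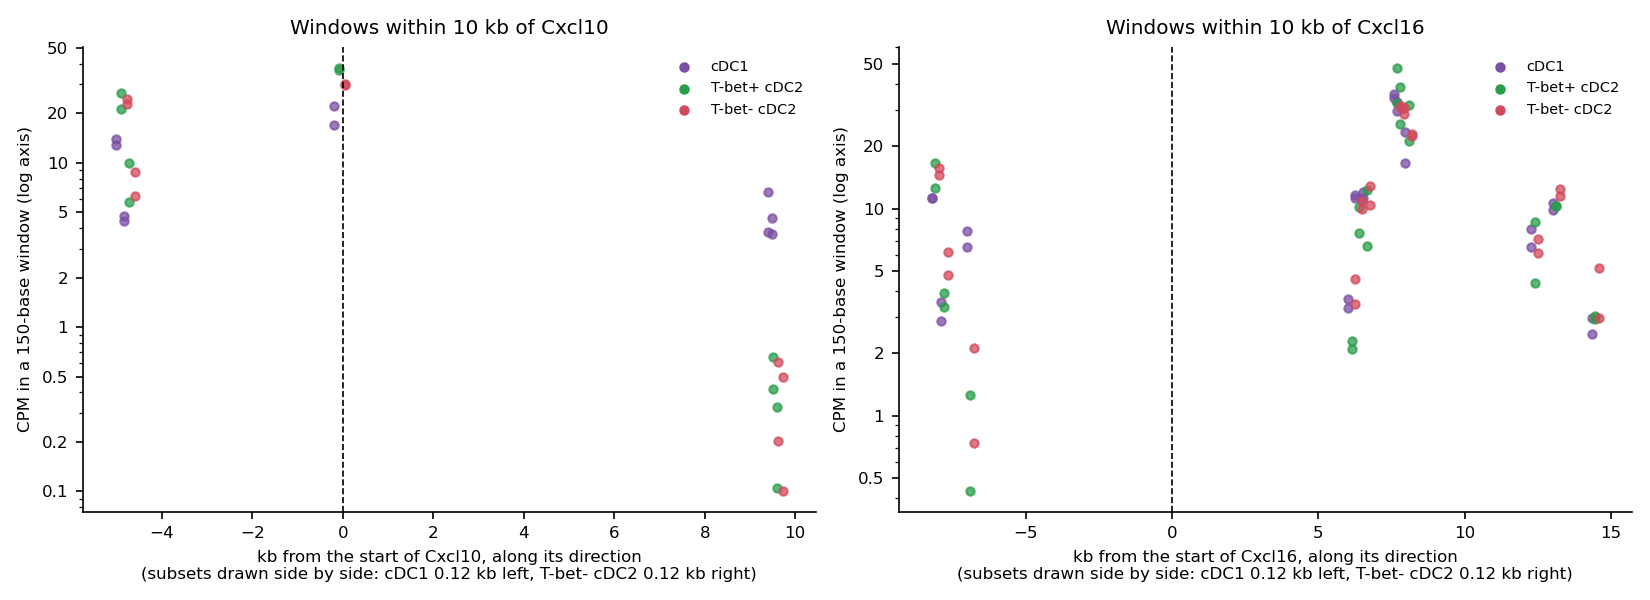
ATAC-seq CPM (log axis) of each 150-base window near Cxcl10 (left) and Cxcl16 (right) against distance in kb from the start of the gene, along its direction, with a dashed line at the start. Points are libraries, and subsets are drawn side by side. Near Cxcl10 the promoter window is highest in T-bet+ cDC2s (37.5 and 36.8 CPM), and the pair of windows about 9.5 kb past the start reaches 3.68 CPM or more only in cDC1s.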

How the data were processed

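RNA-seq libraries were made with SMART-based cDNA amplification. Per the paper's methods, the authors used HISAT2 to align them to mm10 (version 2.1.0 in the submitters' processing notes, which also name SAMtools 1.9 and R 3.4.0), discarded reads that aligned to several places, and used Rsubread to count the rest per gene of GENCODE vM17. The deposited gene counts are raw. ATAC-seq reads were aligned by the authors with Bowtie2 2.2.5, moved 4 bases on the plus and 5 on the minus strand to centre them on the transposase cut, and joined over replicates for MACS2 2.1.1.20160309. The authors kept peaks reproducible between replicates of a subset by IDR, and after size and chromosome filters 74217 remained. The authors deposited counts in 150-base summit windows and in whole peaks. The deposited −log10 p values of summits and the deposited peak score, a constant 0, were not used.

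The counts were normalized by TMM, filtered by filterByExpr and tested with the quasi-likelihood test of edgeR 4.0.16 over all features, with Benjamini-Hochberg adjustment and subset as the only term. All libraries of a tissue or assay entered 1 fit (6 residual degrees of freedom in spleen, 4 in MLN, 10 for both tissues and 3 for ATAC-seq). RNA was called at an adjusted p under 0.05, and ATAC-seq under 0.01 when the log2 fold change was also beyond 0.5 in size. A standard error is the absolute log2 fold change divided by the square root of F. CPM were computed from the deposited counts, scaled by each library's total (reads on kept genes, or in kept windows) times its TMM factor. Reads in windows were 7270164 to 10081555 and in peaks 9335612 to 12803133 per library. Positions are from GENCODE M21, in which 19698 of the symbols were found, and promoter sequences from RefSeq (GRCm38.p6, the assembly of mm10). The Cxcl16 promoter was not used here. Alternatives were DESeq2 1.42.0, its size factors, no filter, a minimum of 10 counts per library, fits of the compared subsets alone, a replicate block, stricter thresholds, library class, each replicate left out, and for ATAC-seq library size only, whole peaks and windows within 10000 bases. The class set by the richest 100 bases of a transcript and the fits without the low-Ccr7 pair were chosen after the data were seen. The fits ran in R 4.3.3 with limma 3.58.1 and were tested on simulated counts, and tables and plots were made in Python 3.11.15 (matplotlib 3.10.9, numpy 2.4.6, pandas 2.3.3).

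The members and gene lists were chosen with earlier results of these data known. Named genes are the 4 members, the 3 genes most correlated with each, and the genes of the lists that passed or had the highest counts, of which some are not reported here. Samples were grouped by their labels. The number of library pairs with identical counts was 0. Each RNA library pools the cells of a pair of mice, so its p-values measure the spread between pools. For ATAC-seq the sources used here do not say how many mice gave a library, and that spread may be technical.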

Additional observations from a re-analysis of the deposited data

How the results depend on the processing

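Counts of called ligands depended on the processing, and so did the calls over all genes given in the last paragraph. With no filter those rose to 554 between the MLN cDC2 subsets and to 3397 (cDC1s), 2435 (T-bet-) and 2875 (T-bet+) between tissues. The ligand counts that follow are therefore not particular to the ligands. With no filter on low counts, 3 ligands passed between the MLN cDC2 subsets (0 with the filter), 2 between MLN T-bet+ cDC2s and cDC1s, 1 in the tissue difference of that contrast, and 1 (cDC1s), 2 (T-bet-) and 3 (T-bet+) between tissues. DESeq2 called 1, 1 and 3 ligands between tissues and 1 between the MLN cDC2 subsets, and its size factors alone gave 2 between tissues in T-bet+ cDC2s. Without the low-Ccr7 pair, 1 ligand passed in the tissue difference of T-bet+ cDC2s against cDC1s, and 2, 2 and 3 between tissues. At an adjusted p under 0.01, 1 ligand passed between the spleen cDC2 subsets and 0 between MLN T-bet- cDC2s and cDC1s, and with the class of the richest 100 bases 2 passed between the spleen cDC2 subsets. Among assigned windows, whole peaks gave 1 call between the cDC2 subsets. A log2 fold change beyond 1 left 0 in both contrasts with cDC1s, DESeq2 and library size only left 0 between T-bet- cDC2s and cDC1s, and windows within 10 kb gave 5 in both.

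The labels do not tie replicate numbers to shared pools of mice, and the main fits assumed no pairing. Correlations of same-numbered deviations differed in sign, from -0.74 to 0.43 in spleen and from -0.21 to 0.11 in ATAC-seq. In MLN they ran from -0.14 to 0.66 (-0.01 to 0.66 by library name), and the low-Ccr7 pair carried the same number. Whether the MLN libraries were paired was not tested. With the replicate block only Cxcl9 passed between the spleen cDC2 subsets (1 ligand, adjusted p = 0.0041 by edgeR), 1 passed between MLN T-bet- cDC2s and cDC1s and 0 between tissues in T-bet+ cDC2s. With the number in the library name as block 1 passed between the MLN cDC2 subsets.

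Leaving out each library in turn, the number of ligands called was 1 to 4 between the spleen cDC2 subsets, 2 to 3 for T-bet+ cDC2s against cDC1s and 2 throughout for T-bet- cDC2s against cDC1s. In MLN these were 0, 1 and 0 to 2, and for the differences between tissues 0, 0 to 1 and 0. Between tissues they were 0 to 3 (cDC1s), 0 to 2 (T-bet-) and 0 to 3 (T-bet+), and for assigned windows 0, 0 to 2 and 0 to 1. The share of all features called in each of these fits is not given here, so the ranges do not set the ligands apart.

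Every ligand value that changed direction was one that had not passed, and the cause was not tested. For Cxcl16 in MLN T-bet- cDC2s against cDC1s the log2 fold change of 0.01 became -0.0128 with DESeq2, -0.0134 with its size factors, -0.000868 with no filter, -0.0167 in the compared subsets alone, -0.50 with the block by library name and -0.30 without the low-Ccr7 pair. Without that pair it became 0.024 between the MLN cDC2 subsets and 0.16 for the tissue difference of T-bet- cDC2s against cDC1s. Cxcl10 between tissues in T-bet+ cDC2s became 0.16 with the replicate block and 0.27 without the pair. Leaving out single libraries, log2 fold changes that crossed 0 ran as follows. Between the cDC2 subsets, Cxcl16 in MLN ran from -2.22 to 0.13, and the tissue differences of Cxcl2 from -0.81 to 1.01 and of Cxcl16 from -1.33 to 1.04. For T-bet+ cDC2s against cDC1s, MLN values ran from -1.21 to 0.0722 (Cxcl10) and -2.22 to 0.11 (Cxcl16), and tissue differences from -1.30 to 0.52 (Cxcl2), -1.25 to 0.0167 (Cxcl10) and -1.53 to 0.84 (Cxcl16). For T-bet- cDC2s against cDC1s, spleen values ran from -0.11 to 0.33 (Cxcl10) and -0.49 to 0.00915 (Cxcl16), and Cxcl16 from -0.40 to 0.32 in MLN and from -0.53 to 0.24 in its tissue difference. Between tissues, Cxcl10 ran from -0.0411 to 1.25 in cDC1s and -0.31 to 0.30 in T-bet+ cDC2s, and Cxcl9 from -0.45 to 0.18 in T-bet- cDC2s.

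Over all genes, edgeR called 774 between the spleen cDC2 subsets, against 1413 with DESeq2, 1521 with no filter and 356 with the replicate block. Between the MLN cDC2 subsets it called 0, against 328 with DESeq2, 554 with no filter, 130 with the block by library name, 14 in the compared subsets alone, and 2 at 10 counts or more and without the low-Ccr7 pair. For MLN T-bet+ cDC2s against cDC1s the count was 952, with DESeq2 2019, with no filter 2257, in the compared subsets alone 586, with the block 539 and by library name 2440. For MLN T-bet- cDC2s against cDC1s it was 885, and 1730 with DESeq2, 2012 with no filter, 573 at 10 counts or more, 515 with the block, 2477 by library name and 1734 without the low-Ccr7 pair. The 3 differences between tissues had 1, 15 and 6 calls, with DESeq2 39, 234 and 114, with no filter 186, 475 and 261 and without the pair 20, 107 and 72, and the second had 7 with the replicate block. Between tissues 1961 (cDC1s), 1000 (T-bet-) and 855 (T-bet+) genes passed, against 3513, 2243 and 2704 with DESeq2, 3397, 2435 and 2875 with no filter and, in T-bet+ cDC2s, 1432 without the pair. ATAC-seq calls were 10460, 38316 and 29773, and 4844, 23964 and 17143 with DESeq2. For T-bet+ cDC2s against cDC1s 18359 windows were higher and 19957 lower, and with library size only, which moved the median of all windows to -0.18, 13058 and 23624. With 2 or 3 libraries per group, a ligand that did not pass is not shown to be equal.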
